A study of Mus musculus with 2 samples.

Results

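Committed monocytes are described here from 2 single-cell libraries of mouse bone marrow, as the cells that carried RNA of Lgals3, Ccr2 and F13a1 together. A cell was kept for this group when it had at least 5 unique molecular identifiers (UMIs, counted RNA molecules) of Lgals3, at least 2 of Ccr2 and at least 1 of F13a1. The 3 MHC class II genes H2-Aa, H2-Ab1 and H2-Eb1 together had to stay below 10 UMIs, which keeps out most dendritic cells. Of 9632 cells that passed the quality filters, 1066 met these conditions, 528 from the KO library and 538 from the WT library. The cells were thus chosen by the UMI counts of these 6 genes, so their values below describe the choice and support nothing.

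Monocytes arise in the marrow from granulocyte and monocyte progenitors, under the transcription factors IRF8 and KLF4 and the CSF1 receptor. As they mature they lose RNA of the primary granule proteins made by their progenitors, and gain the chemokine receptor CCR2, which lets them leave the marrow, along with lysozyme and lysosomal enzymes. Galectin-3, the product of Lgals3, is a sugar-binding protein of mature myeloid cells, and F13a1 encodes the A subunit of coagulation factor XIII, made by the monocyte lineage from an early stage.

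One library came from Phf6 knockout (KO) marrow cells and the other from wild-type (WT) marrow cells. Both sets of cells had received a vector that carries the RUNX1-S291fs mutation with GFP, were sorted for GFP and were transplanted into recipient mice. At 8 weeks after transplant, GFP+Lin- cells, marked by the vector and without surface markers of mature lineages, were sorted from recipient marrow and profiled with a 10x Genomics 3′ kit. The groups are thus KO cells with RUNX1-S291fs and WT cells with RUNX1-S291fs, 1 library each, and no cells without the RUNX1 mutant entered the comparison. The mutant comes from a vector and not from its own locus, the sort removes cells with mature surface markers, and the number of mice behind each library, their ages and the deleted part of Phf6 are not given in the sources used here. With 1 library per genotype no difference below has a replicate check, and genotype cannot be told apart from any other difference between the 2 libraries. Ranges in brackets are 95% intervals, exact ones except for differences between shares, where Newcombe's method was used, and cover counting error only.

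The KO library held 120408100 UMIs in 5260 barcodes and the WT library 131667969 UMIs in 5287, of which 4930 KO and 4702 WT cells were kept. The libraries shared 10 barcodes, none of them among committed monocytes (0 shared). The committed monocytes had a median of 27622.5 UMIs and 5364 detected genes in the KO library, and 27609.5 UMIs and 5435.5 genes in the WT library, and summed to 15271021 and 16102533 UMIs. Mitochondrial genes took a median of 2.92% of a KO cell's UMIs and 2.75% of a WT cell's. Phf6, which encodes a PHD-finger chromatin protein and lies on the plus strand of chromosome X at 52912266 to 52956943 (GRCm38), had 12.6 counts per 1000000 UMIs (CPM) in KO and 30.1 CPM in WT committed monocytes, a log2 ratio of KO over WT of -1.25 (-1.50 to -1.01). At least 1 Phf6 UMI was found in 28.2% of KO and 48.3% of WT cells of the group. Some Phf6 RNA was thus counted in KO cells, and whether those cells made it was not tested. A 3′ tag outside the deleted part would not show the deletion. Runx1 stood at 882 CPM in KO and 726 CPM in WT committed monocytes (0.28, from 0.24 to 0.32). Native and vector-borne Runx1 RNA cannot be told apart here.

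The cut-offs passed through few cells. Among cells that met the other conditions, 26 KO and 25 WT cells had exactly 5 Lgals3 UMIs and were just inside, and 35 KO and 18 WT cells had 4 and were just outside. A Ccr2 count of 2 was held by 3 KO and 10 WT members, while 2 KO and 5 WT cells had 1 and were left out. Missing F13a1 kept out 16 KO and 5 WT cells, and 10 or more MHC class II UMIs kept out 26 in each library. The median member had 24 Lgals3, 18 Ccr2 and 45.5 F13a1 UMIs in the KO library, and 26, 15 and 44 in the WT library. Lgals3 (chromosome 14, 47367751 to 47386160, plus strand) summed to 957 CPM in KO and 931 CPM in WT cells, Ccr2 (chromosome 9, 124101950 to 124113557, plus strand) to 669 and 544, and F13a1 (chromosome 13, 36867178 to 37050244, minus strand) to 1727 and 1548.

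The group is next described by markers that the conditions did not use. S100a4, a calcium-binding protein gene of motile myeloid cells (chromosome 3, 90603771 to 90606045, plus strand), stood at 643 CPM in both KO and WT committed monocytes, against 41.4 CPM in all other kept KO cells and 29.0 CPM in all other kept WT cells. Ifi30, which encodes the lysosomal thiol reductase GILT (chromosome 8, 70762774 to 70766663, minus strand), stood at 599 CPM in KO and 493 CPM in WT members, against 47.1 CPM in other KO and 38.6 CPM in other WT cells. Both markers named with the group were thus high in it in either library. They were chosen with earlier results of these data known, so their levels describe the group and are no check of its label. All 10 monocyte lineage markers (Ly6c2, Csf1r, Irf8, Ly86, Ms4a6c, Ctss, Klf4, Cd14, Ccr2 and F13a1) were at 10 CPM or more in both libraries, 2 of them being genes of the conditions. In either library 9 of the 10 also reached 10 CPM in monocyte progenitors (defined below) and 8 in all other kept cells. That count thus hardly sets the group apart. The 10 markers summed to 6127 CPM in KO and 6034 CPM in WT members, against 1109 and 759 CPM in all other kept cells.

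Genes of the classical, Ly6C-high monocyte were among those that stood furthest above the other cells. At 100 CPM or more, 57 of 1561 genes (3.65%) were at least 4-fold higher, a log2 ratio of 2, in members than in other cells of the same library in both libraries. Besides genes of the conditions, they were led by mean log2 ratio by Fn1 (fibronectin), with a log2 ratio to other cells of 5.68 in KO and 5.70 in WT, and Klf4, the transcription factor gene required for Ly6C-high monocytes, at 4.31 and 4.57. Then came S100a4, Ahnak, a scaffold protein gene, Tgfbi, which encodes a secreted matrix protein, the orphan receptor gene Gpr141 and Lyz2, the myeloid lysozyme gene, at log2 ratios of 3.63 to 4.47. Lyz2 alone took 10098 CPM in KO and 9609 CPM in WT members. Next were the phospholipase gene Plcb1, S100a6, Ifi30 at 3.67 in both libraries, the chitinase-like gene Chil3, Ms4a4c, the actin-binding protein gene Aif1, the lipid receptor gene Trem2 and the interferon-induced gene Ifi27l2a. Cells set against each other by their RNA differ in the genes that set them apart, so these ratios are descriptions.

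Monocyte progenitors were taken for comparison as cells with at least 1 F13a1 and 2 Irf8 UMIs, fewer than 2 Lgals3 UMIs and the same MHC class II limit, 753 KO and 561 WT cells. Ly6c2, the classical monocyte surface antigen gene, stood at 1054 CPM in KO and 1247 CPM in WT committed monocytes, against 268 CPM in KO and 313 CPM in WT progenitors. Csf1r, the CSF1 receptor gene, stood at 174 CPM in KO and 162 CPM in WT members, against 96.5 and 89.2 CPM in the progenitors of the same libraries. Irf8 differed less, at 389 CPM in KO and 473 CPM in WT members, against 265 and 298 CPM in progenitors. Mpo, the primary granule peroxidase gene, ran the other way, with 1014 CPM in KO and 1028 CPM in WT members, against 3768 and 3648 CPM in progenitors. Kit, the stem cell factor receptor gene, was at 14.7 CPM in KO and 11.4 CPM in WT members, against 85.5 and 72.1 CPM in progenitors. The order was the same in both libraries for each of these 5 genes. Irf8 UMIs were a condition for the progenitors, so the difference in Irf8 was set in part by the choice.

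**Figure D1:**
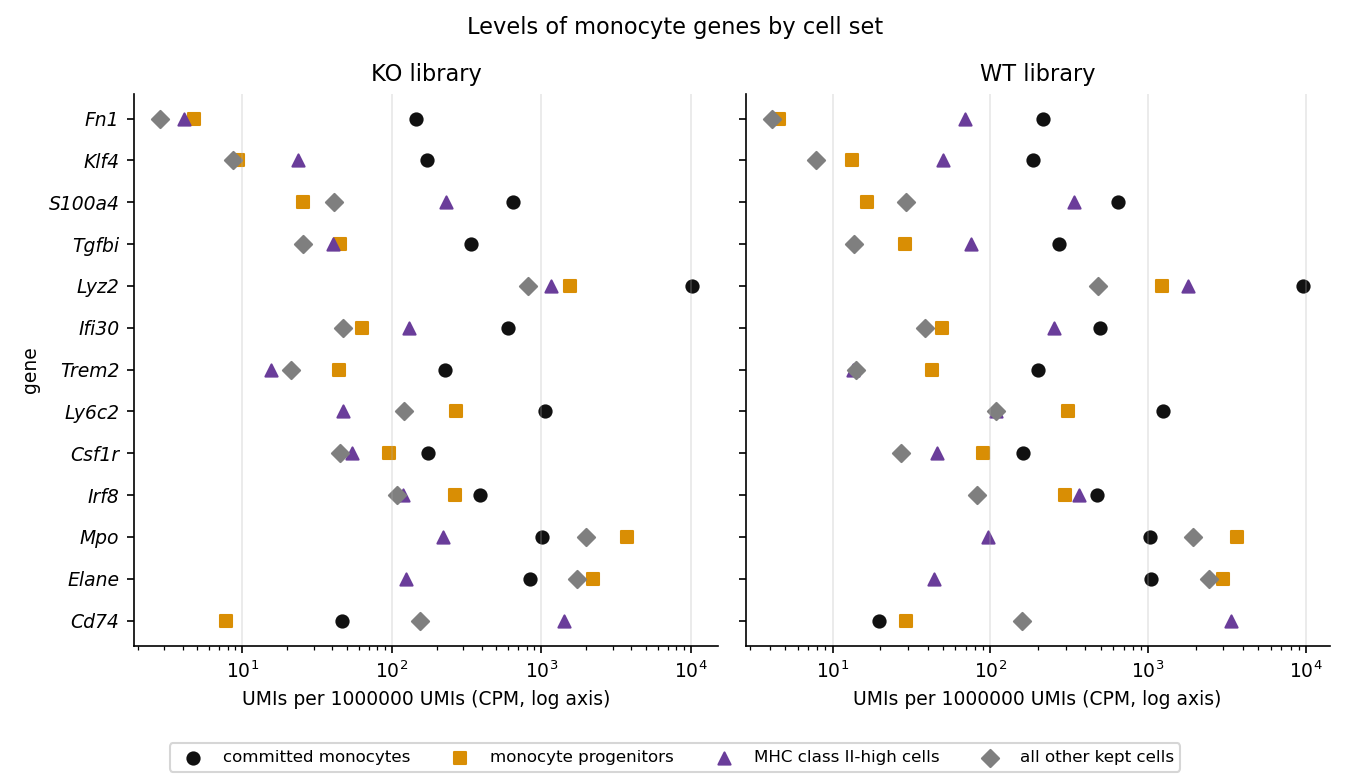
Levels in CPM (log axis) of 13 genes in committed monocytes, monocyte progenitors, cells with at least 10 MHC class II UMIs and all other kept cells, in the KO library (left) and the WT library (right). Each point is the sum over the cells of 1 set in 1 library. S100a4 stands at 643 CPM in committed monocytes of either library, while Mpo is highest in progenitors, at 3768 CPM in KO and 3648 CPM in WT.

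Most markers of later monocyte fates were low, below 10 CPM. Of 7 non-classical monocyte markers, 3 reached 10 CPM in each library and the list summed to 120 CPM in KO and 134 CPM in WT members. Ace, which encodes the angiotensin-converting enzyme of patrolling monocytes, had 0 UMIs in the KO library, which allows up to 0.196 CPM, and 1 in the WT library, and Treml4 stood at 1.44 CPM in KO and 1.24 CPM in WT. Of 12 macrophage markers, 3 reached 10 CPM, and Timd4 was at 0 in both libraries. The macrophage list summed to 134 CPM in KO and 124 CPM in WT members. It summed to less in KO and WT progenitors (44.6 and 50.5 CPM) and in all other kept cells (64.6 and 53.8 CPM). The complement gene C1qa had 48 UMIs in 1.14% of KO members and 0 in WT members. Dendritic cell markers, 10 in number, summed to 165 CPM in KO and 147 CPM in WT members. Cd209a, a lectin gene of monocyte-related dendritic cells, gave 50.6 CPM in KO and 52.9 CPM in WT of these sums. The label of a committed classical monocyte was thus borne by these markers in part, with much RNA of progenitor genes remaining. The 7 neutrophil progenitor markers, Mpo and Elane among them, summed to 5308 CPM in KO and 5176 CPM in WT members. At least 50 such UMIs were found in 340 KO and 336 WT members. The sums in monocyte progenitors were 13001 CPM in KO and 12980 CPM in WT. The 5 committed monocyte markers, 3 of them genes of the conditions, summed to 4596 CPM in KO and 4159 CPM in WT members.

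Committed monocytes were split into 3 groups of equal size by Lgals3 per 10000 UMIs, low, middle and high, with 176 KO and 179 or 180 WT cells each. Lgals3 is a gene of the conditions, and with at least 5 UMIs required a low Lgals3 per 10000 UMIs can be met by deeper cells only, so the split is a description. Mpo was lower with each step of Lgals3, at 1849, 696 and 111 CPM from low to high in KO cells and 1747, 726 and 154 CPM in WT cells. Elane, the neutrophil elastase gene, went the same way, with 1249, 780 and 248 CPM in KO cells and 1705, 719 and 276 CPM in WT cells. Cd34, the progenitor antigen gene, stood at 172, 89.1 and 36.2 CPM in KO cells and 140, 87.9 and 38.7 CPM in WT cells. These 3 genes were thus lower with more Lgals3 in both libraries. The primary granule list, which includes Lyz2, ran the other way in sum, at 15104, 16617 and 20776 CPM in KO cells and 14201, 15496 and 21168 CPM in WT cells. Lyz2 alone stood at 5172, 10444 and 17467 CPM in KO cells and 4671, 9865 and 17952 CPM in WT cells. That is a larger rise than the list's, so the rest of the list was lower in sum with more Lgals3.

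The opposite order was seen for genes of the mature monocyte. S100a4 stood at 199, 631 and 1366 CPM in the KO groups and 201, 654 and 1405 CPM in the WT groups. Fn1 stood at 34.6, 121 and 354 CPM in KO and 45.6, 176 and 566 CPM in WT, and was lower in KO in each group. Chil3 stood at 312, 715 and 1792 CPM in KO and 194, 510 and 1053 CPM in WT, and was higher in KO in each group. Ribosome biogenesis genes, summed over the list, gave 3395, 2612 and 1888 CPM in KO and 4212, 2848 and 2152 CPM in WT. Mki67, a gene of dividing cells, showed no such order, at 262, 333 and 257 CPM in KO and 287, 322 and 270 CPM in WT. The groups differed in depth as well, with median UMIs per cell of 33670.5, 28263.5 and 20810 in KO and 33122, 27855 and 21307 in WT, and the part of depth in these trends was not tested.

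**Figure D2:**
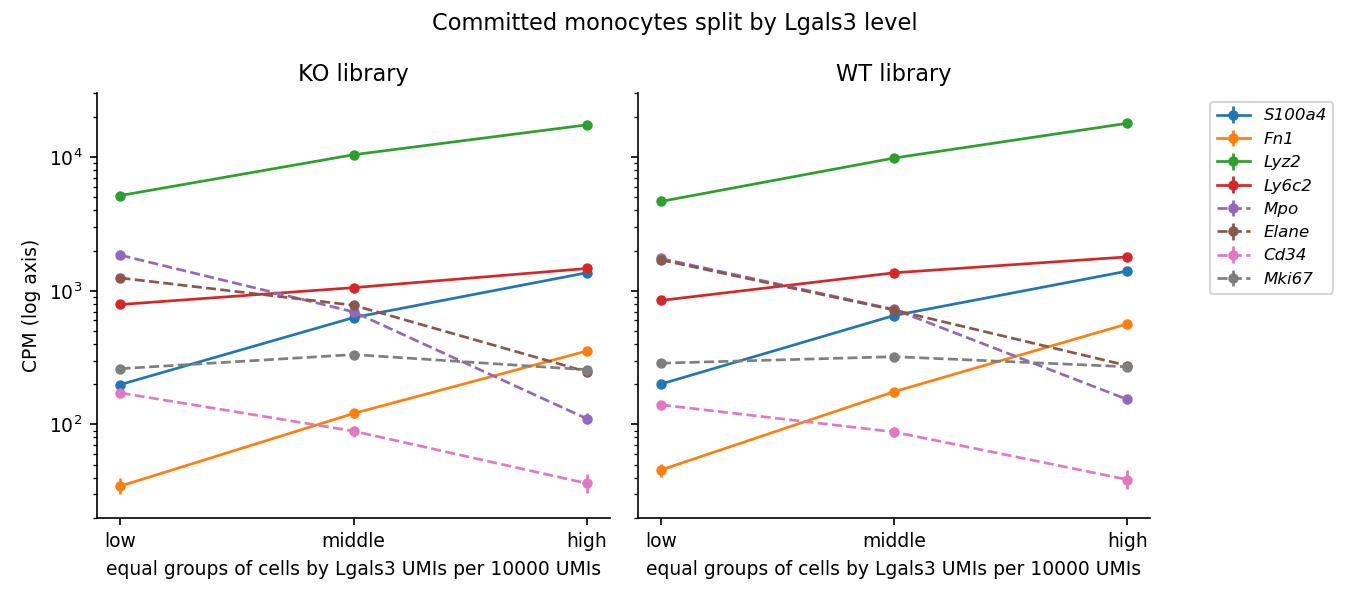
CPM (log axis) of 8 genes in committed monocytes split into 3 equal groups by Lgals3 UMIs per 10000 UMIs, KO library left and WT library right, with exact Poisson 95% intervals as bars, mostly smaller than the points. Mpo falls to 111 CPM in the high-Lgals3 KO group and 154 CPM in the high-Lgals3 WT group, and S100a4 climbs to 1366 CPM in KO and 1405 CPM in WT.

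Across single cells thinned to 10000 UMIs, the named genes with the largest variance over mean in both libraries were S100a8, S100a9, Lyz2, Pf4, Chil3 and the histone gene Hist1h2ap. Over the 3051 genes with a mean of at least 0.5 UMIs the median variance over mean was 1.19 in KO and 1.18 in WT, against 39.9 and 39.2 for Chil3. Chil3 was at a median of 1 UMI and a 90th percentile of 32 UMIs in KO cells, and at 0 and 22 UMIs in WT cells. Lyz2 spanned 23 to 242 UMIs between the 10th and 90th percentile of KO cells and 18 to 248 UMIs in WT cells. Spearman's rho across 519 KO and 528 WT cells, which share 1 library each, was -0.66 in KO and -0.68 in WT between S100a4 and Mpo. It was 0.59 in KO and 0.58 in WT between S100a4 and Ifi30, and 0.65 in KO and 0.54 in WT between Lyz2 and Ctss, the cathepsin S gene. Isg15, an interferon-induced ubiquitin-like protein gene, had a rho between -0.15 and 0.19 with the other 14 genes in KO and between -0.07 and 0.14 in WT.

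The first comparison of genotypes asked what share of cells were committed monocytes. They made up 10.7% of KO cells (9.86 to 11.6) and 11.4% of WT cells (10.5 to 12.4), a difference of KO minus WT of -0.73 percentage points (-1.99 to 0.52). The conditions count UMIs and the libraries differ in depth, with a median of 21982.5 UMIs in kept KO and 25206 in kept WT cells. With all cells thinned to 10000 UMIs, and 651 KO and 519 WT cells of lower depth set aside, the shares were 8.65% of 4279 KO cells and 8.32% of 4183 WT cells, a difference of 0.33 points (-0.86 to 1.52). The sign of the difference turned with thinning and both intervals included 0, so a difference in share was not detectable at this depth.

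The next comparison set the summed RNA of KO committed monocytes against that of WT committed monocytes. Of 8172 genes at a mean of at least 10 CPM, 119 (1.46%) were at least 1.5-fold higher in KO and 121 (1.48%) at least 1.5-fold lower, and the median log2 ratio of all genes was 0.02. At a mean of 100 CPM or more, 14 of 1671 genes (0.838%) were higher and 4 (0.239%) lower by that fold. Most genes of these cells thus lay within 1.5-fold of each other in the 2 libraries.

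**Figure D3:**
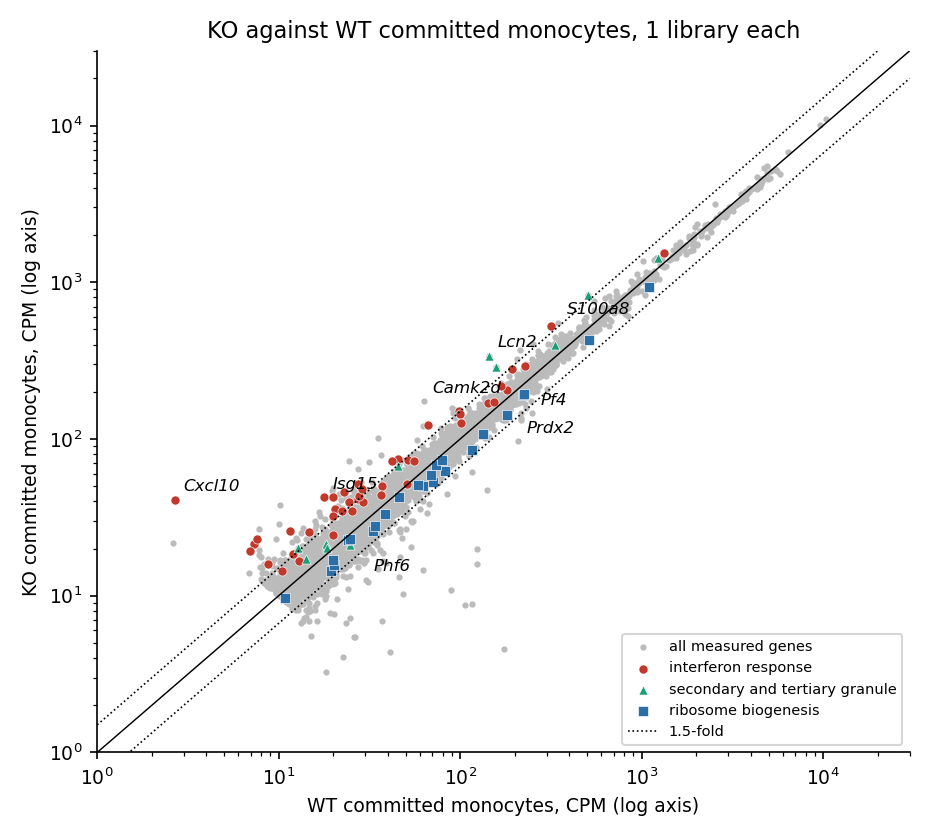
CPM of each measured gene in KO committed monocytes (vertical, log axis) against WT committed monocytes (horizontal, log axis), 1 library each. The solid line marks equal levels and the dotted lines 1.5-fold, and genes of 3 lists are coloured. The interferon response genes lie above the solid line, by at least 1.5-fold for 24 of 43, and the ribosome biogenesis genes lie below it and within the dotted lines.

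Interferon response genes, the antiviral set that interferons switch on, were higher in KO committed monocytes. Of 43 measured members of a list of 65, 24 were at least 1.5-fold higher and 0 as much lower, against 1.46% higher over all genes, and the median log2 ratio was 0.64. All 43 log2 ratios were above 0, from 0.01 for Ifi35 upwards, a direction that held for this list's median under every setting tried. Stat2, a transcription factor gene of the response, stood at 35.7 CPM in KO and 20.5 CPM in WT (0.80). Irf7, the factor that amplifies the response, stood at 39.6 CPM in KO and 24.5 CPM in WT (0.69). Ifi27l2a was the most abundant of those past 1.5-fold, at 525 CPM in KO and 316 CPM in WT (0.73, from 0.68 to 0.78).

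Effectors of the response were higher as well. Isg15 stood at 42.6 CPM in KO and 17.8 CPM in WT (1.26, from 1.06 to 1.47), and Usp18, the enzyme that removes the ISG15 protein from its targets, at 22.9 and 7.58 CPM (1.59). Oas3, which makes the second messenger that activates RNase L, stood at 21.5 CPM in KO and 7.33 CPM in WT (1.55). Sensors of foreign nucleic acid were among the higher genes: Zbp1 at 46.0 CPM in KO and 22.9 CPM in WT (1.00) and Ifih1, the gene of MDA5, at 25.3 and 14.7 CPM (0.79). Members of the Schlafen family, Slfn1 (1.46), Slfn5 (1.09) and Slfn8 (0.70), and of the Ifi200 family, Ifi211 (0.78), Ifi204 (0.72) and Ifi209 (0.60), were also past 1.5-fold. Genes within each of these families resemble one another, so reads could be shared between them. The most abundant member, Ly6e, stood at 1537 CPM in KO and 1331 CPM in WT (0.21), within 1.5-fold.

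Upstream sequences are shown for 4 of these genes because interferon-responsive promoters are known to carry paired GAAA repeats, the sites that IRF factors bind. The motif searched was GAAA, any 2 bases and GAAA again, on both strands, in the 300 bases from 250 before to 50 after each gene's start in RefSeq on GRCm38.p6, with capitals marking each match (TTTC, 2 bases and TTTC on the opposite strand). The 4 genes were picked from those at least 1.5-fold higher in KO that had a match, so their matches were fixed by the choice. They are Isg15 (chr4:156200769-156201068, minus strand), Ifi211 (chr1:173912997-173913296, minus strand), Trim30d (chr7:104507800-104508099, minus strand) and Stat2 (chr10:128270248-128270547, plus strand), each 5′ to 3′ along its gene.
Isg15: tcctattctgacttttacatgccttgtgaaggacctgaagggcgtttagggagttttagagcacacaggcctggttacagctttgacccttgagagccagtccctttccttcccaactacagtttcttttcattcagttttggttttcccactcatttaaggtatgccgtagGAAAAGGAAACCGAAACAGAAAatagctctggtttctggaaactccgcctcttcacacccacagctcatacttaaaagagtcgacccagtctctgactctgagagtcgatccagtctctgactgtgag
Ifi211: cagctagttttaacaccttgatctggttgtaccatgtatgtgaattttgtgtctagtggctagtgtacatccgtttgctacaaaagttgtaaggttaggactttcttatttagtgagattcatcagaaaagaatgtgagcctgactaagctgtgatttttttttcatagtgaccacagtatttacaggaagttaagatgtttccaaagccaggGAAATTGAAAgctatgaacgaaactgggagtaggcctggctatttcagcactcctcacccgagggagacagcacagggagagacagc
Trim30d: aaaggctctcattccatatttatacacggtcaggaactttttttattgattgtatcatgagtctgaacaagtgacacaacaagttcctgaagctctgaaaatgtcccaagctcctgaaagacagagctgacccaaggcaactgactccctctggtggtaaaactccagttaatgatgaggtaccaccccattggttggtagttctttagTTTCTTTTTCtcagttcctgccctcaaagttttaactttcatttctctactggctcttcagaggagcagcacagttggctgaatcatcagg
Stat2: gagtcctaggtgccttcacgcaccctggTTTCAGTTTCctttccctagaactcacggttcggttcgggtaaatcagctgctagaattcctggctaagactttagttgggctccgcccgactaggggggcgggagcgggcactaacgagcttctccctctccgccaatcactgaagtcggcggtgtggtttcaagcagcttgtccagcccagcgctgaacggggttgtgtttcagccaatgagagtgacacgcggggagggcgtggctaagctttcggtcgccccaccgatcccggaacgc
In the Isg15 promoter 3 overlapping matches run together, the first starting 78 bases before the start of the gene. Ifi211 and Trim30d have 1 match each, which starts 37 and 41 bases before the start. In Stat2 the 1 match starts 222 bases before the start. The matches of Trim30d and Stat2 read on the opposite strand.

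A promoter was held for 33 of the 43 measured interferon response genes, and 17 of them (51.5%) had a match. Among all 27025 genes with a RefSeq promoter 1079 (3.99%) had one, as had 262 of the 6558 genes that were measured in these cells and had a promoter. Of the interferon response genes at least 1.5-fold higher in KO, 10 of 17 with a promoter had a match, and of the other measured ones 7 of 16. A match describes the sequence and shows no binding.

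The interferon-induced GTPases, which attack the vacuoles of intracellular pathogens, followed the list. Past 1.5-fold stood 3 of the 7 measured, where 1.46% of all genes were higher, Gbp5 (17.5 CPM in KO, 8.01 CPM in WT), Irgm1 (34.1 and 16.7) and Gbp2 (24.9 and 13.4), and the median log2 ratio was 0.53. Iigp1, below the level at which genes were counted, stood at 18.7 CPM in KO and 0.994 CPM in WT, with at least 1 UMI in 51 KO and 7 WT cells. Among MHC class I presentation genes the median was 0.24 and 1 of 22 was past 1.5-fold higher, the transactivator Nlrc5 at 37.1 CPM in KO and 21.2 CPM in WT (0.81). All 22 were above 0, among them B2m, the class I light chain gene, at 1368 CPM in KO and 1021 CPM in WT (0.42). The Ifitm genes, whose products block viral entry, had 0 of 4 past the fold and a median of 0.19. Of these, Ifitm1 (0.20) had 62.7% of its WT UMIs in 5 cells. Without cells that also carried RNA of another lineage it stood at 15.2 CPM in KO and 4.32 CPM in WT (1.82). After thinning to 10000 UMIs, with the conditions applied again, its log2 ratio was -0.62, so its direction was not stable.

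The higher level was found across the cells as well as in a few. With each cell thinned to 10000 UMIs, the interferon list gave a median of 49 UMIs in KO cells (10th to 90th percentile 29 to 94.2) and 37 UMIs in WT cells (22 to 64). The highest 10% of cells held 24.4% of the list's UMIs in KO and 21.4% in WT. Without them the mean was 48.1 UMIs in KO and 36.5 UMIs in WT cells. With the highest 10% of cells left out of the sums, a setting chosen after seeing the data, 17 of 39 measured members were past 1.5-fold and the median log2 ratio was 0.50. At least 1 Isg15 UMI was found in 39.6% of KO and 25.7% of WT members, against 31.1% of other KO and 24.6% of other WT cells.

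A few KO cells stood far above the rest. The highest cell had 335 interferon UMIs of 10000 in KO and 168 in WT. Cxcl10, a chemokine gene that draws T cells, stood at 41.0 CPM in KO and 2.67 CPM in WT, but 80.5% of its KO UMIs lay in 5 cells, and 8 KO and 0 WT cells had 10 or more. Ifit1 was found at 5 or more UMIs in 10 KO cells and 1 WT cell, and Isg15 at 10 or more in 17 KO and 3 WT cells.

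**Figure D4:**
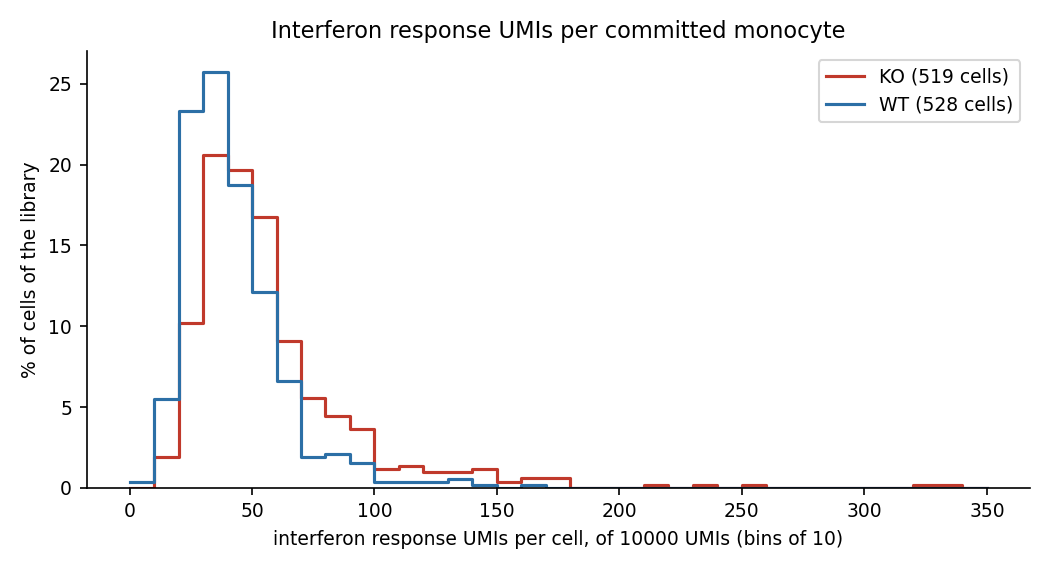
Share of committed monocytes (vertical, % of the cells of each library) by interferon response UMIs per cell after thinning to 10000 UMIs (horizontal, bins of 10 UMIs). The KO curve lies to the right of the WT curve, with medians of 49 and 37 UMIs, and its tail reaches 335 UMIs.

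In monocyte progenitors the same list had 10 of 29 measured members at least 1.5-fold higher in KO, where 0.983% of all genes were so, 0 lower, where 0.921% were, and a median of 0.45. In all other kept cells 22 of 36 were higher, where 2.71% of all genes were, and 0 lower, where 1.26% were, with a median of 0.64. Isg15 had a log2 ratio of 1.38 in progenitors and 0.82 in all other cells, beside 1.26 in committed monocytes. Interferon response genes were thus higher in KO in each of these sets of cells.

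Lcn2, Hp, Chil3 and Wfdc17, genes of secreted or granule proteins, were past 1.5-fold higher in KO committed monocytes, while the list of chemokines and secreted proteins had 3 of 20 measured members higher and 3 lower, with a median of -0.01. Lcn2, the gene of lipocalin-2, a secreted protein that withholds iron from bacteria (chromosome 2, 32384633 to 32388252, minus strand), stood at 340 CPM in KO and 144 CPM in WT (1.24, from 1.17 to 1.31), and was found in 91.1% of KO and 79.4% of WT cells, against 31.3% of other KO and 27.4% of other WT cells. Hp, the gene of haptoglobin, which binds free haemoglobin, stood at 289 CPM in KO and 157 CPM in WT (0.87), and Chil3 at 826 and 507 CPM (0.70, from 0.66 to 0.74). Wfdc17, a whey acidic protein gene of activated myeloid cells, stood at 121 CPM in KO and 62.4 CPM in WT (0.96). Of the 12 measured secondary and tertiary granule genes 4 were at least 1.5-fold higher (Lcn2, Hp, Chil3 and Mmp8) and 0 lower, where 1.46% and 1.48% of all genes were, with a median of 0.26. Chil3 was within 1.5-fold after thinning, at 0.52, and Mmp8 without cells that also carried RNA of another lineage, at 0.39. For ratios after thinning, here and below, the conditions were applied again to the thinned counts, which left 370 KO and 348 WT cells. Such ratios thus differ from the main ones in the cells used as well as in depth. In all other kept cells 7 of 10 measured secondary and tertiary granule genes were higher and 0 lower, with a median of 0.78. There 2.71% of all genes were higher and 1.26% lower. In monocyte progenitors 3 of 11 were higher and 2 lower, with a median of 0.12, where 0.983% and 0.921% of all genes were.

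Some other genes of maturing neutrophils were low in these cells. Ltf, the lactoferrin gene, stood at 0.589 CPM in KO and 0.683 CPM in WT members, Ngp at 0.720 and 0.435, Camp at 2.95 and 2.24 and Ly6g at 0.0655 and 0.0621. Of the 10 maturing neutrophil markers 5 reached 10 CPM in KO and 3 in WT, and their sum was 452 CPM in KO and 183 CPM in WT, of which Lcn2 gave 340 and 144. Retnlg, another of the 10, had 872 UMIs in KO and 4 in WT members. Of the KO UMIs of Retnlg 858 lay in 1 cell, so the KO sum rests in part on that cell. Primary granule genes had 0 of 10 members past 1.5-fold and a median of 0.01, with Ctsc, which activates the granule proteases, at 764 CPM in KO and 547 CPM in WT (0.48) and Elane at 834 and 1037 CPM (-0.31).

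The calprotectin genes S100a8 and S100a9, which encode a calcium- and zinc-binding pair of neutrophils and monocytes, had much of their RNA in few cells. S100a8 stood at 551 CPM in KO and 347 CPM in WT (0.67), with 39.2% of KO and 64.8% of WT UMIs in 5 cells of each library. With likely doublets left out its log2 ratio was 1.69, and without cells that also carried RNA of another lineage 1.47. S100a9 stood at 182 CPM in KO and 137 CPM in WT (0.41), with 84.0% and 88.0% of UMIs in 5 cells, and 1.02 and 0.90 in the same settings. After thinning, in the cells that met the conditions again, the log2 ratio was 1.67 for S100a8 and 2.12 for S100a9. Over 519 KO and 528 WT members thinned without a second selection, S100a8 averaged 5.66 and 2.53 UMIs per cell. S100a9 averaged 1.97 and 0.66 there. The direction of both held in these settings, while the size did not.

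Of 23 classical monocyte genes outside the conditions 5 were at least 1.5-fold higher in KO, against 1.46% of all genes, and 1 lower, against 1.48%, with a median of 0.26. The higher ones were Wfdc17, Hp, Ms4a4c, a tetraspan membrane protein gene at 367 CPM in KO and 213 CPM in WT (0.78), Chil3 and Mmp8. The lower one was Thbs1, the thrombospondin-1 gene of monocytes and platelets, whose WT UMIs lay to 74.2% in 5 cells. The most typical genes of the class differed little and in both directions: Ly6c2 (-0.24), Ms4a6c (-0.09), Lyz2 (0.07) and Plac8 (0.30). Fn1 stood at 145 CPM in KO and 216 CPM in WT (-0.57, from -0.65 to -0.49), and was found in 43.0% of KO and 57.6% of WT members, against 2.84% of other KO and 3.82% of other WT cells.

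Receptors of antibody and genes of innate sensing come next. Fgr, a Src family kinase gene downstream of Fc and integrin receptors, stood at 64.0 CPM in KO and 27.3 CPM in WT (1.23, from 1.07 to 1.40). Fcgr1, the gene of the high-affinity receptor for IgG, stood at 40.6 CPM in KO and 21.9 CPM in WT (0.89). These were the 2 of 13 Fc receptor and adaptor genes past 1.5-fold higher, where 1.46% of all genes were, with 0 lower and a median of 0.18, while the shared adaptor genes Fcer1g (0.08) and Tyrobp (0.11) were within it. Of 25 innate sensing genes 3 were higher and 0 lower, beside 1.46% and 1.48% of all genes: Tmem173, the gene of STING, which reports DNA in the cytosol (45.6 CPM in KO, 26.0 CPM in WT), Tlr2 (0.61) and Tlr8 (0.60), receptors of microbial lipoproteins and of RNA. With likely doublets left out Tlr2 stood at 0.54 and Tlr8 at 0.49, within the fold. Cd300lf, an inhibitory receptor gene, stood at 27.0 CPM in KO and 13.6 CPM in WT (0.99) and Siglece, a sialic acid-binding inhibitory receptor gene, at 36.3 and 22.4 CPM (0.70, and 0.57 after thinning). Over 519 KO and 528 WT members thinned without a second selection, Siglece averaged 0.360 and 0.216 UMIs per cell.

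A chemokine receptor gene was lower and a cytokine receptor gene higher in KO. Cx3cr1, the fractalkine receptor gene of monocytes that patrol vessels (chromosome 9, 119901616 to 120069879, minus strand), stood at 19.6 CPM in KO and 36.2 CPM in WT (-0.88, from -1.09 to -0.68), and was found in 27.3% of KO and 43.5% of WT members, against 11.3% of other KO and 12.5% of other WT cells. Tgfbr1, which encodes the type I receptor of TGF-beta, stood at 71.0 CPM in KO and 31.4 CPM in WT (1.18, from 1.03 to 1.34). Of 24 cytokine receptor genes Tgfbr1 and Csf2rb2 (0.61, and 0.54 with likely doublets left out) were past 1.5-fold higher, where 1.46% of all genes were, with 0 lower and a median of 0.22. Ccr2, a gene of the conditions, had a log2 ratio of 0.30 and Csf1r one of 0.10.

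Among 39 myeloid transcription factor genes 5 were higher and 2 lower past 1.5-fold, beside 1.46% and 1.48% of all genes, with a median of 0.16. Besides Irf7, the higher ones included Irf1, a first responder to interferon-gamma, at 44.4 CPM in KO and 21.5 CPM in WT (1.04), Id2, an inhibitor of helix-loop-helix factors, at a log2 ratio of 0.73, and Pou2f2, the gene of OCT2, at 147 and 91.7 CPM (0.68, and 0.56 with likely doublets left out). The lower ones included the immediate early gene Egr1 at 16.9 CPM in KO and 30.4 CPM in WT (-0.85). Nr4a1, needed for non-classical monocytes, stood at 11.3 CPM in KO and 16.5 CPM in WT (-0.55, from -0.83 to -0.26), just within 1.5-fold. Its log2 ratio was -0.69, past the fold, with likely doublets left out. It was also -0.69 without cells that carried RNA of another lineage, and -0.46 after thinning. Irf8 (-0.28) and Klf4 (-0.11), the factors of the lineage itself, were within 1.5-fold.

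Of single genes outside the lists, Camk2d, the gene of a calcium- and calmodulin-dependent kinase subunit (chromosome 3, 126596302 to 126846326, plus strand), had the largest log2 ratio at 100 CPM or more, with 174 CPM in KO and 63.2 CPM in WT (1.46, from 1.35 to 1.56). It was found in 83.7% of KO and 62.3% of WT members, against 55.2% of other KO and 42.7% of other WT cells. Pbx3, a homeobox gene (0.80), Pde7b, a cyclic AMP phosphodiesterase gene (0.72), and Fyb, an adaptor gene of immune cells (0.65), were also among the 12 highest. Among 7446 genes with under 15% of their UMIs in the 5 highest cells of each library, a rule chosen after seeing the data that leaves out immunoglobulin genes and unnamed gene models among others, the highest were Commd10 (102 CPM in KO, 35.3 CPM in WT), Gngt2 (28.6 and 10.1 CPM), Camk2d, Rhoq and Lcn2. The lowest by the same rule were Phf6, Cx3cr1, the sulfatase gene Sulf2 (-0.88), the transcription factor gene Nfia (-0.85) and the arsenic methyltransferase gene As3mt (-0.83). Of the genes left out, the immunoglobulin kappa constant gene Igkc stood below these, at 10.9 CPM in KO and 89.5 CPM in WT (-3.03), and the predicted gene Gm49980 above Lcn2, at a log2 ratio of 1.29. The rule also drops genes with few UMIs in 1 library, so these ranks do not cover all widespread differences. Dock1, so dropped, had 67 UMIs in 26 KO cells and 659 UMIs in 238 WT cells. Lrg1, dropped as well, had 409 UMIs in 183 KO cells and 126 UMIs in 82 WT cells. Tnfsf13, which encodes the B cell cytokine APRIL, was among the lower ones at 58.0 CPM in KO and 94.1 CPM in WT (-0.70). Commd10 had a log2 ratio of 1.46 in progenitors and 1.40 in all other cells, beside 1.53 in committed monocytes.

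Heat shock and ribosome-making genes had median log2 ratios below 0 in committed monocytes, with few or no members past 1.5-fold. Their medians were below 0 in monocyte progenitors (-0.12 and -0.10) and in all other kept cells (-0.27 and -0.28) as well. Of 17 heat shock chaperone genes 0 were higher and 2 lower past 1.5-fold, where 1.48% of all genes were lower, with a median of -0.22. Hspa1b, one of the inducible HSP70 genes, stood at 136 CPM in KO and 215 CPM in WT (-0.66, from -0.74 to -0.59), and its near-identical neighbour Hspa1a at 209 and 302 CPM (-0.53), a pair between which reads can be split. Hsph1, an HSP70 partner gene, stood at 25.7 CPM in KO and 40.7 CPM in WT (-0.67) and Hsp90aa1 at 607 and 846 CPM (-0.48). After thinning, in the 370 KO and 348 WT cells that met the conditions again, Hspa1b stood at -0.34 and Hsph1 at -0.09, within the fold. Over 519 KO and 528 WT members thinned without a second selection, Hspa1b averaged 1.44 and 2.12 UMIs per cell. Hsph1 averaged 0.227 and 0.311 there.

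All 24 measured ribosome biogenesis genes were below 0, with 0 past 1.5-fold in either direction and a median of -0.23, and their sum was 2745 CPM in KO and 3268 CPM in WT. Nop56, a small nucleolar ribonucleoprotein gene, stood at 85.3 CPM in KO and 116 CPM in WT (-0.44), Ncl, the nucleolin gene, at 430 and 513 CPM (-0.25) and Npm1, the nucleophosmin gene, at 938 and 1104 CPM (-0.24). Myc network genes had a median of -0.21 and 1 of 23 lower past the fold, the polyamine synthesis gene Odc1 at 26.8 CPM in KO and 50.2 CPM in WT (-0.91), which was -0.35 without cells that carried RNA of another lineage. The Myc network median was -0.11 in monocyte progenitors and -0.26 in all other kept cells.

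**Figure D5:**
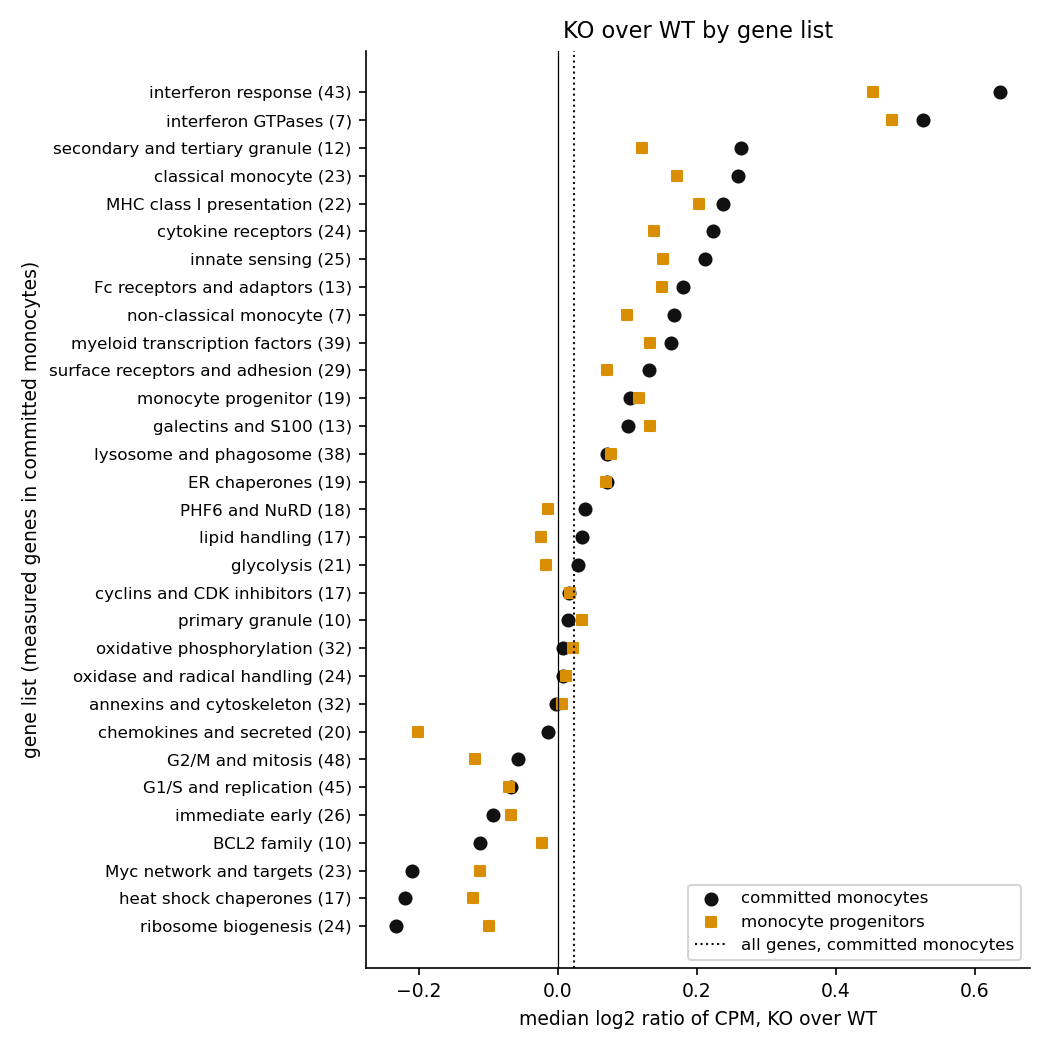
Median log2 ratio of CPM, KO over WT, of each gene list with at least 7 measured members, in committed monocytes (circles) and monocyte progenitors (squares), with the number of measured genes in brackets. The interferon response list is highest in committed monocytes at 0.64 and the ribosome biogenesis list lowest at -0.23, and the dotted line marks the median of all genes in committed monocytes, 0.02.

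Other programmes of the monocyte differed little in sum. Lysosome and phagosome genes, 38 measured, had a median of 0.07 with 0 higher and 1 lower, the tetraspanin gene Cd63 at -0.87, which was -0.11 with likely doublets left out. Cd63 stayed past the fold without cells that also carried RNA of another lineage (-0.72) and after thinning (-0.62). Annexin and cytoskeleton genes had 0 of 32 past the fold, oxidative phosphorylation genes 0 of 32 with a median of 0.01, and endoplasmic reticulum chaperone genes 0 of 19 with a median of 0.07. Lipid handling genes, where 1.46% higher and 1.48% lower is the share over all genes, had 1 of 17 higher, the cholesterol exporter gene Abcg1 at 15.9 CPM in KO and 8.32 CPM in WT (0.94). They had 4 lower: Fabp5, a fatty acid carrier gene (30.0 and 55.3 CPM, -0.88), Olr1, the gene of the oxidised LDL receptor (16.5 and 29.4 CPM, -0.83), Cd9 and Cd63. Besides Phf6, 0 of 17 genes of the NuRD complex and its partners were past the fold.

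The lists of BCL2 family genes and of cyclins and CDK inhibitors had median log2 ratios of -0.11 and 0.02, with 2 lower genes and 0 higher each, where 1.48% of all genes were lower. Bcl2, the gene of the founding inhibitor of apoptosis, stood at 39.9 CPM in KO and 62.2 CPM in WT (-0.64, from -0.79 to -0.49) and Bcl2l1, the gene of BCL-XL, at 16.7 and 26.7 CPM (-0.68), the 2 of 10 BCL2 family genes past 1.5-fold. Without cells that also carried RNA of another lineage Bcl2l1 stood at -0.45. Ccnd1, a cyclin D gene, stood at 21.0 CPM in KO and 34.7 CPM in WT (-0.72) and Ccnd2 at 13.3 and 24.6 CPM (-0.89), the 2 of 17 cyclin and CDK inhibitor genes past it. After thinning Ccnd2 stood at -0.50 in the cells that met the conditions again. Over 519 KO and 528 WT members thinned without a second selection, Ccnd2 averaged 0.0963 and 0.157 UMIs per cell. Of 45 genes of DNA replication and 48 of mitosis 0 were past the fold, with medians of -0.07 and -0.06. By cell cycle scores after thinning to 10000 UMIs, 18.5% of KO cells (15.2 to 22.1) and 13.3% of WT cells (10.5 to 16.5) were called G1, a difference of 5.24 points (0.81 to 9.67). S phase was called in 51.1% of KO and 54.0% of WT cells, and G2/M in 30.4% of KO and 32.8% of WT cells. Unthinned, G1 was called in 20.3% of KO and 15.2% of WT cells. The calls rest on scores relative to other genes of the cell, with 13 cells of each library within 0.02 of the cut, and a call is not a measure of division.

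Some committed monocytes also carried RNA of other lineages, that of platelets and red cells in more WT than KO members. At least 20 UMIs of the 8 megakaryocyte and platelet markers were found in 9 KO and 30 WT members, at least 20 of the 8 erythroid markers in 2 KO and 11 WT members, and at least 20 of the 7 basophil or mast cell markers in 19 KO and 23 WT members. For the 10 maturing neutrophil markers, which include Lcn2, it was 88 KO and 12 WT members. The platelet markers summed to 210 CPM in KO and 367 CPM in WT, the erythroid markers to 40.1 and 391 CPM, and the eosinophil markers to 8.51 and 193 CPM, the last mostly from 1 WT cell with 2707 Prg2 UMIs. The basophil or mast cell markers summed to 244 CPM in KO and 153 CPM in WT, and the maturing neutrophil markers were higher in sum in KO, as given above. With the cells of 20 platelet, erythroid, eosinophil, basophil or B lineage UMIs left out, and those with at least 50 S100a9 UMIs in place of the neutrophil markers, 29 KO and 54 WT cells in all, a setting chosen after seeing the data, 114 genes were higher and 73 lower past 1.5-fold, of which 96 and 52 were shared with the full set. Of the cells so left out, 24 KO and 44 WT cells were among the likely doublets by Scrublet, which marked 6.63% of KO and 10.6% of WT members, against 4.26% of all kept KO and 4.47% of all kept WT cells.

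Several lower genes moved with these cells. Pf4, a platelet chemokine gene, stood at 146 CPM in KO and 249 CPM in WT, a log2 ratio of -0.77 that turned to 0.10 without them, with 65.9% of KO and 55.8% of WT UMIs in 5 cells. Prdx2, a peroxiredoxin gene abundant in red cells, stood at 97.2 CPM in KO and 209 CPM in WT, and its log2 ratio of -1.10 was -0.51 without them. For Blvrb, the biliverdin reductase gene, the log2 ratio of -0.92 was -0.16 without them, and for the glucose transporter gene Slc2a3 the ratio of -1.39 was -0.51. Cd9 had -0.92 with them and -0.18 without, and Thbs1 -2.48 with them and 0.24 without. The interferon list kept 22 of 43 members past 1.5-fold with a median of 0.60, Lcn2 a log2 ratio of 1.17, Camk2d 1.36, Cx3cr1 -0.99 and Bcl2 -0.81. The part of such cells in the remaining differences was not tested.

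Traces of RNA from genes these cells should lack differed between the libraries too. Jchain, the gene of the joining chain of plasma cell antibodies, gave at least 1 UMI in 4.36% of KO and 29.9% of WT committed monocytes, and in 2.66% of other KO and 27.9% of other WT cells, at 1.57 CPM in KO and 13.2 CPM in WT members. The beta-globin gene Hbb-bs gave at least 1 UMI in 29.4% of KO and 46.3% of WT members and in 28.4% and 45.6% of other cells. The shares were thus alike in members and in other cells of the same library, and no empty droplets were measured. The part of such RNA in the ratios above was not tested.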

How the data were processed

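Whole-number UMI counts per gene and barcode were used as deposited by the authors, 1 matrix for each genotype, with no normalization. The matrices were written by Cell Ranger 6.0.2, per the file headers. Version 3.0.1 and the build GRCm38 stand in the submitters' processing notes. Which gene annotation release was used for counting is not stated there. Gene positions come from GENCODE on GRCm38, which held 32235 of the 32285 gene IDs.

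Barcodes with at least 500 detected genes and at most 10% mitochondrial UMIs were kept, and committed monocytes were chosen by the UMI limits given above. Their counts were summed per library, scaled to CPM over all genes and compared as log2 ratios of KO over WT, with exact conditional binomial intervals. Levels carry exact Poisson intervals, shares exact Clopper-Pearson intervals and differences of shares Newcombe intervals. A gene counted as measured at a mean of at least 10 CPM and as higher or lower past 1.5-fold. No test across libraries was possible with 1 per genotype. A count of 0 was read as up to 3 counts.

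Doublets were left in, and removed in an alternative by the highest Scrublet scores, 0.8% of barcodes per 1000 barcodes. Other alternatives changed the cell filter, the UMI limits, the depth, the scaling (edgeR 4.0.16 TMM, median of ratios), the weighting of cells, the minimum level and the fold. For shares and log2 ratios after thinning, the UMI limits were applied again to the thinned counts. Cell cycle phases came from scanpy 1.11.5. The calculation of the intervals was tested on simulated Poisson counts. Those follow the counting model that the intervals assume, so the test says nothing on the spread among cells or libraries.

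Genes named are the 12 highest and 12 lowest log2 ratios at 100 CPM, up to 4 members of each of 34 gene lists by size of the log2 ratio, the 15 highest over other cells and the 12 most variable, besides Phf6, Runx1 and the markers. Rankings leave out genes of the conditions, mitochondrial, ribosomal protein, haemoglobin, immunoglobulin, T cell receptor and Y-linked genes, Xist, Tsix and unnamed gene models. Genes outside these rules were chosen after their values were seen. The cells, the gene lists and the named genes were chosen with earlier results of these data known. Some genes are not reported here.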

Additional observations from a re-analysis of the deposited data

Results flagged for a closer look

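For 4 genes the log2 ratio of KO over WT had opposite signs in committed monocytes and in monocyte progenitors, and with 1 library per genotype the difference between the 2 cell sets was not tested. Chil3 had a log2 ratio of 0.70 in committed monocytes and -0.40 in progenitors, where it stood at 44.0 CPM in KO and 58.1 CPM in WT. S100a8 had 0.67 in committed monocytes and -1.14 in progenitors (293 CPM in KO, 643 CPM in WT). S100a9 had 0.41 in committed monocytes and -1.82 in progenitors (105 CPM in KO, 371 CPM in WT). Cd74, the gene of the MHC class II invariant chain, had 1.24 (1.04 to 1.43) in committed monocytes, at 46.6 CPM in KO and 19.7 CPM in WT, and -1.91 in progenitors, at 7.75 CPM in KO and 29.2 CPM in WT. The share of progenitors with at least 1 UMI was higher in KO for all 4, at 20.6% in KO and 16.2% in WT for Chil3, 75.4% and 68.8% for S100a8, 53.0% and 40.3% for S100a9, and 12.5% and 9.63% for Cd74. The limit on MHC class II UMIs that defines both cell sets bears on Cd74.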

How the results depend on the processing

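The interval of the difference in the share of committed monocytes included 0 in every alternative run with an interval, and the difference was -0.17 points with cells of other-lineage RNA left out. The difference in G1 calls moved by less than its interval in both alternatives. After thinning to 10000 UMIs, with the conditions applied again and 370 KO and 348 WT cells left, 242 genes were higher and 209 lower past 1.5-fold. At a minimum of 50 CPM 23 were higher and 16 lower of 3391 genes, and with no minimum above 1 UMI 1586 were higher and 2064 lower of 16429. At 2-fold 30 were higher and 34 lower. Leaving out cells with RNA of another lineage left 73 lower and turned Pf4 to 0.10 and Thbs1 to 0.24. The interferon response median was 0.39 at 50 CPM, and the secondary and tertiary granule median 0.43 after thinning and 0.63 at 50 CPM. A higher minimum or fold counts fewer genes by construction, and the cause was not tested for the others. Of the ratios of named genes under alternatives 976 moved by no more than the counting interval allows, 275 moved further, some across 0, and 2 that were past 1.5-fold changed sign. TMM moved the median of all genes by 0.00 and the median of ratios by 0.02 on the log2 scale. No paired analysis was possible because each genotype has 1 library. Genes of few UMIs are limited by depth.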
